A study of Mus musculus with 6 samples.

Results

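Cnn3, Cd69 and Pdgfrb were followed, together with their paralogs Cnn2 and Pdgfra, in mouse bone marrow progenitors carrying the transcription factor Evi1. These are 5 genes of the 38924 rows of a deposited expression table. Cnn3, Cd69 and Pdgfrb were chosen because they were much lower in preleukemic than in control cells, so for these 3 genes that difference is given as a description with no test. Cnn2 and Pdgfra were added as the relatives of Cnn3 and Pdgfrb, whatever their values.

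Calponins are actin-binding proteins. Cnn1 encodes the basic calponin of smooth muscle, Cnn2 a calponin found in many cells including blood cells, and Cnn3 the acidic calponin of non-muscle cells. CD69 is a C-type lectin that lymphocytes and other blood cells put on their surface soon after activation, and it draws the receptor of sphingosine-1-phosphate encoded by S1pr1 from the surface, which holds cells back in tissue. Pdgfrb and Pdgfra encode the receptor tyrosine kinases for platelet-derived growth factors, known in bone marrow chiefly from pericytes and mesenchymal stroma. Mecom is the gene of Evi1, a zinc finger protein of hematopoietic stem cells that drives myeloid leukemia when it is overproduced.

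The study sequenced messenger RNA of C57BL/6 bone marrow cells sorted as GFP positive, lineage negative and c-kit positive. The cells came from mice that had received marrow transduced with GFP alone and were sampled at 4 weeks (mock), or with Evi1 and GFP and sampled at 4 weeks (preleukemia) or at 6 months (leukemia). Each group had 2 libraries. No GFP group was sampled at 6 months, so time and leukemia cannot be told apart in the comparisons of leukemia with the other groups. It is not stated if the paired libraries derive from different mice, so the tests see only how far a group's libraries lie apart, which can be a technical spread. GFP marks every sorted cell as a descendant of a transduced cell, and the promoter that drives Evi1 is not named in the labels.

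Values are RPKM, read numbers divided by gene length and by the library total, and the totals implied by the values ran from 16922992 to 21641740 reads. Groups were compared with limma on log2(RPKM + 1) over the 10958 genes that reached 1 RPKM in at least 2 libraries, two-sided, with Benjamini-Hochberg adjustment. Differences below are on that scale unless called a ratio. In preleukemia against mock 19.5% of the tested genes passed an adjusted p of 0.05, in leukemia against mock 25.6% and in leukemia against preleukemia 18.3%. Of those that passed, 69.2%, 47.3% and 28.8% were higher in the first group named, and after quantile normalization these shares were 52.9%, 53.4% and 50.8%. The counts behind these shares, 2140, 2809 and 2006 genes, ran from 520 to 3873, 1046 to 3848 and 430 to 3449 as single libraries were left out, lowest without preleukemia library 2, leukemia library 2 and preleukemia library 2 and highest without mock library 1. The median difference between the 2 mock libraries was 0.22, against 0.11 in each of the other pairs. Mecom stood at 0.774 and 0.805 RPKM in the mock pair, 78.0 and 80.1 in the preleukemia pair and 61.7 and 71.5 in the leukemia pair. Both groups labelled as carrying Evi1 thus stood above mock. Reads of the transduced and of the endogenous gene cannot be told apart.

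Cnn3 lies on chromosome 3 (121426497 to 121458207, plus strand, GENCODE M21 on GRCm38, ENSMUSG00000053931.11). It was measured at 22.1 and 22.3 RPKM in the mock libraries, 1.27 and 1.20 in the preleukemia libraries and 7.39 and 6.23 in the leukemia libraries. The 3 groups did not overlap, and the leukemia libraries lay between the other groups. Among all tested genes, 25.5% had both preleukemia libraries below both mock libraries and 37.2% had both above. For leukemia against mock the shares were 35.5% below and 30% above, and for leukemia against preleukemia 46% below and 24.7% above. The means were 22.2 ± 0.146 (SD, n = 2), 1.23 ± 0.0488 (SD, n = 2) and 6.81 ± 0.824 RPKM (SD, n = 2). These values stand for 1862 reads over both mock libraries, 95 over both preleukemia libraries and 556 over both leukemia libraries. Per library total, mock held 18.1 times the Cnn3 reads of preleukemia (exact 95% interval 14.7 to 22.5) and 3.26 times those of leukemia (2.96 to 3.59), intervals that cover counting error only. The difference of preleukemia from mock, on which Cnn3 was chosen, was -3.38, the 4th lowest of the tested genes, of which 6.02% passed downward.

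The leukemia libraries had no part in that choice, although the mock and the preleukemia libraries had. Cnn3 fell by 1.58 from mock to leukemia (95% interval -1.87 to -1.29, limma adjusted p = 0.000572), where 13.5% of the tested genes passed in that direction. It rose by 1.80 from preleukemia to leukemia (1.51 to 2.09, limma adjusted p = 0.000937), where 5.27% of the tested genes passed upward. With a pseudocount of 5 the rise was 0.92 and still passed.

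Cnn2 lies on chromosome 10 (79988584 to 79996062, plus strand, ENSMUSG00000004665.10) and moved in the opposite direction to Cnn3 in both comparisons with mock. Its levels were 21.4 and 21.7 RPKM in the mock pair, 54.5 and 68.0 in the preleukemia pair and 56.4 and 60.0 in the leukemia pair. Both groups with Evi1 lay above mock without overlap, as for 37.2% of the tested genes in preleukemia and 30% in leukemia. The groups with Evi1 overlapped with each other. Cnn2 rose by 1.46 in preleukemia against mock (1.17 to 1.75, limma adjusted p = 0.00111), where 13.5% of the tested genes passed upward, and by 1.39 in leukemia against mock (1.10 to 1.69, limma adjusted p = 0.000896), where 12.1% did. Leukemia and preleukemia differed by -0.06 (-0.36 to 0.23, limma adjusted p = 0.759).

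RPKM allows the paralogs to be set side by side per length. The Cnn2 level was 0.966 and 0.970 of the Cnn3 level in the mock libraries, 43.0 and 56.7 times the Cnn3 level in preleukemia and 7.63 and 9.63 times in leukemia. Cnn3 made up 50.9% and 50.7% of the summed RPKM of the 3 calponins in the mock pair, 2.27% and 1.73% in the preleukemia pair and 11.6% and 9.40% in the leukemia pair. How reads shared by paralogs were counted is not given in the sources used here.

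**Figure D1:**
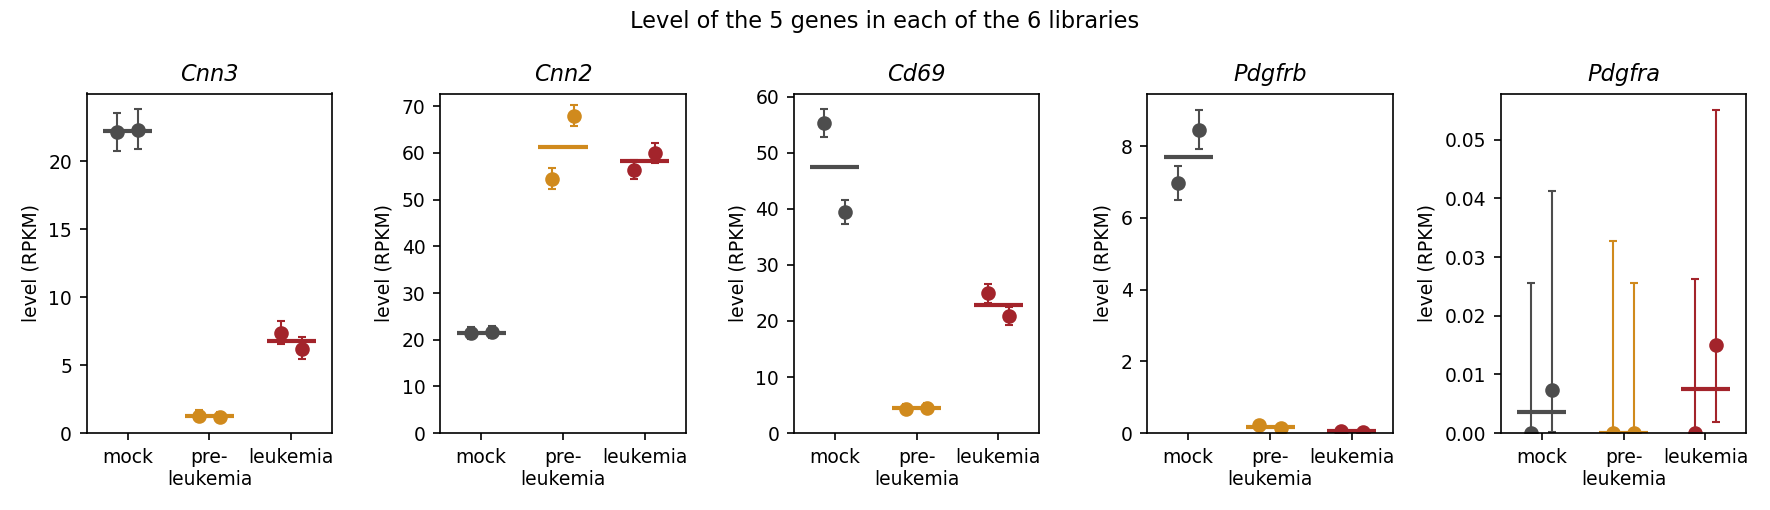
Level of each of the 5 genes (vertical axis, RPKM, a separate scale per gene) in the mock, preleukemia and leukemia libraries. Points are single libraries with exact 95% Poisson intervals of their reads (counting error only), and bars are group means. Cnn3 and Cd69 are lowest in preleukemia and intermediate in leukemia, Pdgfrb is low in both groups with Evi1, Cnn2 is high in both, and Pdgfra rests on at most 2 reads in a library.

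The stretches upstream of both calponin genes are shown because these 2 relatives moved in opposite directions against mock in the same libraries. They are RefSeq promoter windows on GRCm38.p6, cut to end before the annotated gene start, 5′ to 3′ on the plus strand, at chr3:121426291-121426496 for Cnn3 and chr10:79988350-79988583 for Cnn2. Capitals mark CCAAT boxes read on either strand (CCAAT or ATTGG).
Cnn3: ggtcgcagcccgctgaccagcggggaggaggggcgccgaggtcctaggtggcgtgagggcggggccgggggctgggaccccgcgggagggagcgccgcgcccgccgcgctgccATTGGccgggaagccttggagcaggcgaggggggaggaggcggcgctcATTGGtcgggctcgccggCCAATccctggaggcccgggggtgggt
Cnn2: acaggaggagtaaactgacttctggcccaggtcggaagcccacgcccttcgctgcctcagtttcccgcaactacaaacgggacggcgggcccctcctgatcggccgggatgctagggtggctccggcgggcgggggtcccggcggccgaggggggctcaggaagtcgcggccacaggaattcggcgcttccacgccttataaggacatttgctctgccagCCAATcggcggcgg
The Cnn3 window holds 78.6% G and C and the Cnn2 window 67.1%, while the median over all RefSeq promoters was 52.4%. Over the 250 bases before the RefSeq start, Cnn3 had 3 CCAAT boxes, Cnn2 had 1 and Pdgfra had 0, and 33.9% of 32851 promoters had at least 1 and 2.79% at least 3. The GC box GGGCGG, searched on both strands, occurred once upstream of Cnn3, in 2 copies upstream of Cnn2 and not upstream of Pdgfra, with a share of 32.7% of all promoters. A CArG box, the element bound by serum response factor, was found upstream of Cnn2 alone of these, and 1.47% of all promoters have one. The letters GACAAGATA and GAAGATGAG, given in the literature for the first and second zinc finger domains of Evi1, occurred in none of the 3 windows, and in 0.107% and 0.347% of all promoters. The AP-1 element TGANTCA, the Gata1 motif AGATAA and the core promoter box TATAAA occurred in none of the 3 either, with shares of 6.75%, 9.99% and 12.4%. Cd69 and Pdgfrb were not searched.

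Of the 6 calponin and transgelin genes, 4 were tested. In leukemia against mock Cnn2 and Cnn3 passed, in opposite directions. In preleukemia against mock, on which Cnn3 was chosen, Cnn2 passed of the other 3. The shares over all tested genes were 25.6% in leukemia against mock and 19.5% in preleukemia against mock. Tagln2, an actin-bundling relative abundant in blood cells, stood at 166 and 169 RPKM in the mock pair, 204 and 189 in the preleukemia pair and 203 and 190 in the leukemia pair, and did not pass (limma adjusted p = 0.138 and 0.123 against mock). Tagln, the smooth muscle transgelin, ranged from 1.25 to 2.39 RPKM over the 6 libraries and did not pass (limma adjusted p = 0.736 and 0.639). Cnn1 was covered by at most 3 reads in a library, and Tagln3 did not exceed 0.115 RPKM. The median over the 3 tested genes other than Cnn3 was 0.23 in each comparison with mock, beside 0.05 and -0.04 over all tested genes.

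The wider list of actin filament binding and contractile genes held 26 genes, of which 16 were tested. In preleukemia against mock 3 fell and 7 rose, with a median of 0.16, and in leukemia against mock 3 fell and 2 rose, with a median of 0.03. Over all tested genes 6.02% passed downward and 13.5% upward in preleukemia against mock. In leukemia against mock these shares were 13.5% and 12.1%. The count of 10 was 2 and 1 without preleukemia library 1 or 2, and the count of 5 was 3 and 1 without leukemia library 1 or 2. Actn1, the actin crosslinker alpha-actinin 1, was measured at 4.64 and 3.47 RPKM in the mock pair, 28.4 and 43.9 in the preleukemia pair and 10.6 and 13.6 in the leukemia pair. It rose by 2.85 in preleukemia (SE 0.23, limma adjusted p = 0.00101) and by 1.37 in leukemia (SE 0.23, limma adjusted p = 0.00776), the latter with an adjusted p of 0.0553 without leukemia library 2. Myh10, the non-muscle myosin heavy chain IIB, stood at 5.18 and 2.03 RPKM in the mock pair, 0.672 and 0.442 in the preleukemia pair and 0.10 and 0.156 in the leukemia pair. Myh10 reached 1 RPKM in the mock libraries alone and so entered the test through the group in which it was high. Its fall of 1.94 in leukemia passed (limma adjusted p = 0.00727, and 0.0335 with no filter on low values), and its -1.48 in preleukemia (limma adjusted p = 0.0229) did not without preleukemia library 1 (0.0869) or 2 (0.142), nor with no filter (0.0766). Vim, the intermediate filament vimentin, fell by 0.93 in leukemia (limma adjusted p = 0.00860), and not without leukemia library 2 (0.0608).

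**Figure D2:**
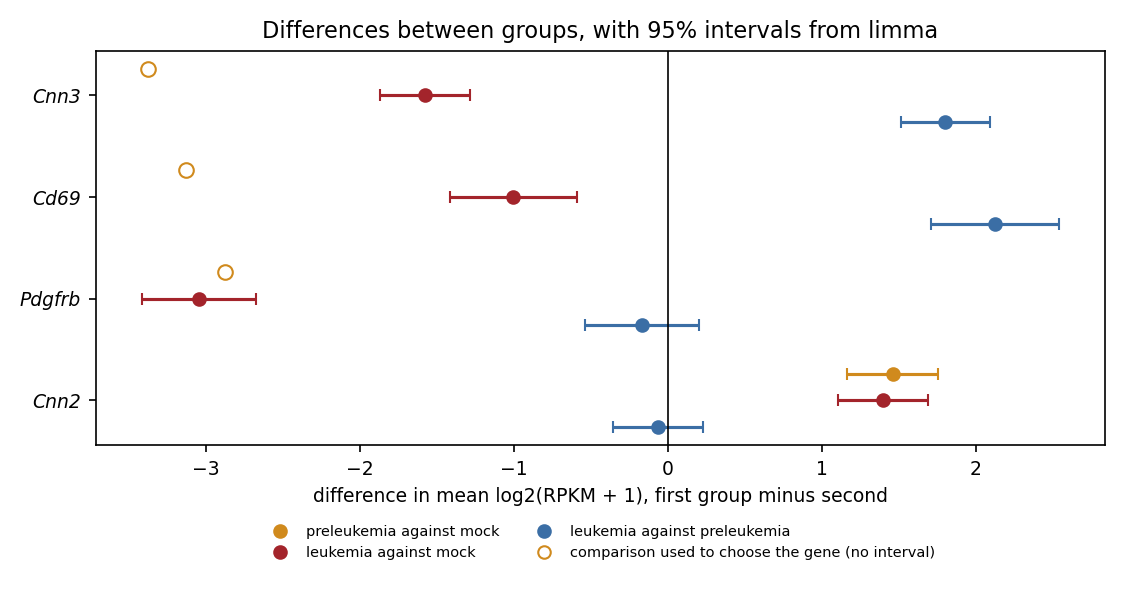
Difference in mean log2(RPKM + 1) between groups (horizontal axis, first group minus second) for the 4 tested genes, with limma 95% intervals. Open circles mark the comparison on which Cnn3, Cd69 and Pdgfrb were chosen and carry no interval. Between preleukemia and leukemia Cnn3 and Cd69 lie at 1.80 and 2.12, and the intervals of Pdgfrb and Cnn2 cover 0.

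Cd69 lies on chromosome 6 (129267325 to 129275436, minus strand, ENSMUSG00000030156.5), among the C-type lectin genes of the NK gene complex. It was measured at 55.3 and 39.4 RPKM in the mock pair, 4.37 and 4.53 in the preleukemia pair and 24.9 and 20.8 in the leukemia pair. The groups did not overlap, the leukemia libraries were intermediate, and the mock libraries differed most from each other. Of all tested genes, 25.5% had both preleukemia libraries below both mock libraries, and 35.5% had both leukemia libraries below them. In 24.7% both leukemia libraries lay above both preleukemia libraries. The means were 47.4 ± 11.2 (SD, n = 2), 4.45 ± 0.112 (SD, n = 2) and 22.9 ± 2.91 RPKM (SD, n = 2), from 3229, 279 and 1512 reads per group. Mock held 10.7 times the Cd69 reads of preleukemia per library total (exact 95% interval 9.44 to 12.1) and 2.08 times those of leukemia (1.95 to 2.21), for counting error only. The difference of preleukemia from mock, on which Cd69 was chosen, was -3.13, the 5th lowest.

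Cd69 fell by 1.00 from mock to leukemia (95% interval -1.42 to -0.59, limma adjusted p = 0.00852). Without leukemia library 2 the difference was -0.88 and did not pass (limma adjusted p = 0.0624). Cd69 rose by 2.12 from preleukemia to leukemia (1.71 to 2.54, limma adjusted p = 0.00155), and this passed with any library left out. Both comparisons share libraries with the one on which Cd69 was chosen.

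A list of 11 genes of CD69 and cell egress, which covers the receptors, kinases, lyase and transporter of sphingosine-1-phosphate, had 10 tested members. Of the 9 other than Cd69, 3 fell and 1 rose in preleukemia against mock, and 3 fell and 2 rose in leukemia against mock. Over all tested genes 19.5% and 25.6% passed in these comparisons. The 3 that fell were S1pr1, S1pr3 and Sphk1, a kinase that makes the lipid, in both comparisons. These reached 1 RPKM in the mock libraries alone and so entered the test through the group in which they were high, and their number is no support for a direction of the list. S1pr1, the receptor that CD69 draws inward, was measured at 3.19 and 4.39 RPKM in the mock pair, 0.644 and 0.351 in the preleukemia pair and 0.0314 and 0.0336 in the leukemia pair. S1pr1 was lower in all 4 libraries with Evi1 and lowest in leukemia, where Cd69 was intermediate. It fell by 1.67 in preleukemia (SE 0.19, limma adjusted p = 0.00284) and by 2.20 in leukemia (SE 0.19, limma adjusted p = 0.000813), and with no filter on low values the adjusted p were 0.0167 and 0.00737. S1pr3, another receptor of the lipid, stood at 3.27 and 2.39 RPKM in mock and between 0.511 and 0.629 in the other 4 libraries, and fell by 1.23 and 1.33 (limma adjusted p = 0.00492 and 0.00266, and 0.0219 and 0.0123 with no filter). Spns2, which exports the lipid from cells, was measured at 30.6 and 29.2 RPKM in the mock pair, 48.5 and 36.1 in the preleukemia pair and 85.9 and 75.4 in the leukemia pair, and rose by 1.40 in leukemia (limma adjusted p = 0.00168). Of the 9 other than Cd69, fewer passed in preleukemia without preleukemia library 2, and fewer in leukemia without leukemia library 2.

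Among 15 early activation antigens and immediate-early genes 8 were tested. Of the 7 other than Cd69, 2 fell and 0 rose in preleukemia against mock, with a median of -1.03. In leukemia against mock 1 fell and 0 rose, with a median of -0.03, and from preleukemia to leukemia 2 rose and 0 fell, with a median of 0.54. Over all tested genes 19.5% passed in the first of these comparisons, 25.6% in the second and 18.3% in the third. Egr1, an immediate-early transcription factor singled out after its values were seen, followed the course of Cd69 in part: it was measured at 45.5 and 47.8 RPKM in the mock pair, 8.54 and 11.1 in the preleukemia pair and 41.0 and 60.7 in the leukemia pair. Egr1 fell by 2.15 in preleukemia against mock (limma adjusted p = 0.00144) and rose by 2.25 from preleukemia to leukemia (limma adjusted p = 0.00193), while leukemia and mock differed by 0.10 (limma adjusted p = 0.749). Cd44, an adhesion receptor for hyaluronan, stood at 31.6 and 54.5 RPKM in the mock pair, 24.4 and 27.1 in the preleukemia pair and 14.0 and 17.3 in the leukemia pair. It fell by 1.36 in leukemia (limma adjusted p = 0.00944), and not without leukemia library 1 (0.0614). Myc, a transcription factor of growth and division, was measured at 97.6 and 48.0 RPKM in the mock pair, 88.5 and 99.1 in the preleukemia pair and 145 and 129 in the leukemia pair. Its 0.99 in leukemia against mock did not pass (limma adjusted p = 0.0505), and it passed without mock library 1 (0.00142) or 2 (0.0346). More of the 7 other than Cd69 passed in each of the 3 comparisons without mock library 1. In the 2 comparisons with leukemia more passed also without mock library 2, and in leukemia against mock fewer passed without leukemia library 1.

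Of 21 listed lectin genes of the NK complex 8 were tested, and of the 7 other than Cd69, 1 fell and 3 rose in each comparison with mock. Over all tested genes 19.5% passed in preleukemia against mock and 25.6% in leukemia against mock. Clec9a, 1 of the 7, reached 1 RPKM in the mock libraries alone and so entered the test through the group in which it was high. Fewer of the 7 passed without either preleukemia library in preleukemia against mock, and fewer without either leukemia library in leukemia against mock. Clec12a, an inhibitory receptor of myeloid cells that starts 67.3 kb beyond Cd69 and is its nearest named neighbour on that side in the table, was measured at 25.0 and 26.9 RPKM in the mock pair, 105 and 110 in the preleukemia pair and 85.6 and 98.2 in the leukemia pair. It rose by 2.01 and 1.78 (SE 0.11 each, limma adjusted p = 0.000231 and 0.000242). Clec2d, the neighbour 80.8 kb away on the other side, stood at 11.4 and 5.10 RPKM in mock and between 25.0 and 34.2 in the other 4 libraries. Its rise of 1.69 in preleukemia (limma adjusted p = 0.0134) did not pass without preleukemia library 1 (0.0625) or 2 (0.101), and its rise of 1.87 in leukemia (limma adjusted p = 0.00725) did not pass without leukemia library 2 (0.050).

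Pdgfrb lies on chromosome 18 (61045150 to 61085061, plus strand, ENSMUSG00000024620.11). It was measured at 6.96 and 8.46 RPKM in the mock pair, 0.216 and 0.143 in the preleukemia pair and 0.0695 and 0.0279 in the leukemia pair. All 4 libraries with Evi1 lay far below mock. Of all tested genes, 25.5% had both preleukemia libraries below both mock libraries, and 35.5% had both leukemia libraries below them. The leukemia libraries of Pdgfrb lay below its preleukemia libraries without overlap, as for 46% of the tested genes. The means were 7.71 ± 1.06 (SD, n = 2), 0.180 ± 0.0512 (SD, n = 2) and 0.0487 ± 0.0294 RPKM (SD, n = 2), from 1760, 37 and 11 reads per group. Mock held 43.9 times the reads of preleukemia per library total (exact 95% interval 31.7 to 62.5) and 156 times those of leukemia (86.7 to 312), for counting error only. The difference of preleukemia from mock was -2.88, the 8th lowest.

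Pdgfrb fell by 3.05 from mock to leukemia (95% interval -3.42 to -2.68, limma adjusted p = 0.000135, and 0.00358 with no filter on low values). Pdgfrb reached 1 RPKM in the mock libraries alone, so it entered this test through the group in which it was high, and the mock libraries also had a part in choosing it. The pseudocount of 1 sets much of this size: with 0.1 the difference was -5.72, with 5 it was -1.33, and limma-voom on the recovered reads gave -7.28, all past the threshold. Leukemia and preleukemia differed by -0.17 (-0.54 to 0.20, limma adjusted p = 0.496), and by -1.85 with limma-voom (adjusted p = 0.142). Per library total, preleukemia held 3.55 times the Pdgfrb reads of leukemia (exact 95% interval 1.77 to 7.71), for counting error only. With a pseudocount of 1, a level as low as that of Pdgfrb in preleukemia leaves a further fall too little room to pass. Cnn3 and Cd69 passed upward from preleukemia to leukemia, while for Pdgfrb the test could have called only a rise and called none. The difference between these courses was not tested.

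The choice of the 3 genes can be placed among the largest falls. Ordered by the difference of preleukemia from mock, Cst7, Cxcl2 and Prss34 came before Cnn3 and Cd69, and Slc45a3 and Samd14 before Pdgfrb. Among genes that passed and had both preleukemia libraries below both mock libraries, the next after Pdgfrb were Trem1 at -2.87 and Tnfaip3 at -2.80.

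Pdgfra, on chromosome 5 (75152292 to 75198215, plus strand, ENSMUSG00000029231.15), was all but undetected. It had 1 read in mock library 2, 2 reads in leukemia library 2 and 0 in the other 4 libraries, where 3 reads would be worth 0.0208 to 0.0266 RPKM over all 6. It did not reach the filter and was not tested, and at this depth no difference between groups was detectable. In mock, the 1760 reads of Pdgfrb stand beside 1 read of Pdgfra.

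No ligand of the PDGF receptors reached 1 RPKM. Pdgfa ranged from 0.0979 to 0.625 RPKM and Pdgfb from 0.0317 to 0.668, both highest in preleukemia library 1. Pdgfc did not exceed 0.0364 RPKM, and Pdgfd ranged from 0 to 0.193 RPKM, highest in mock library 1. Pdgfrb was therefore the only tested gene among the 6 PDGF ligands and receptors.

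Among the related receptor tyrosine kinases of class III and class V, Pdgfrb, Kit, Csf1r and Flt3 were tested. Flt3, a cytokine receptor of early lymphoid and myeloid progenitors, was measured at 14.7 and 18.6 RPKM in the mock pair, 3.66 and 3.13 in the preleukemia pair and 1.63 and 4.19 in the leukemia pair. Flt3 fell by 2.00 in preleukemia (limma adjusted p = 0.00741, and 0.0640 without preleukemia library 2) and by 2.25 in leukemia (limma adjusted p = 0.00362). Csf1r, the macrophage growth factor receptor that follows Pdgfrb 15.5 kb downstream on the same strand, stood at 26.4 and 38.3 RPKM in the mock pair, 16.9 and 15.2 in the preleukemia pair and 27.1 and 20.4 in the leukemia pair. Its -0.94 in preleukemia (limma adjusted p = 0.0220) did not pass without preleukemia library 1 (0.0875) or 2 (0.146), and its -0.42 in leukemia did not pass (0.169). Kit, the stem cell factor receptor by which the cells were sorted and the nearest named gene after Pdgfra, ranged from 46.8 to 69.2 RPKM. Its -0.11 in preleukemia did not pass (limma adjusted p = 0.524). Its -0.39 in leukemia had a limma adjusted p of 0.0472, and did not pass without mock library 1 (0.0706), either preleukemia library (0.0967 and 0.0965) or either leukemia library (0.146 and 0.225), nor with no filter on low values (0.0809). Kdr, Flt1 and Flt4, the endothelial receptors for vascular growth factors, did not exceed 0.200 RPKM.

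**Figure D3:**
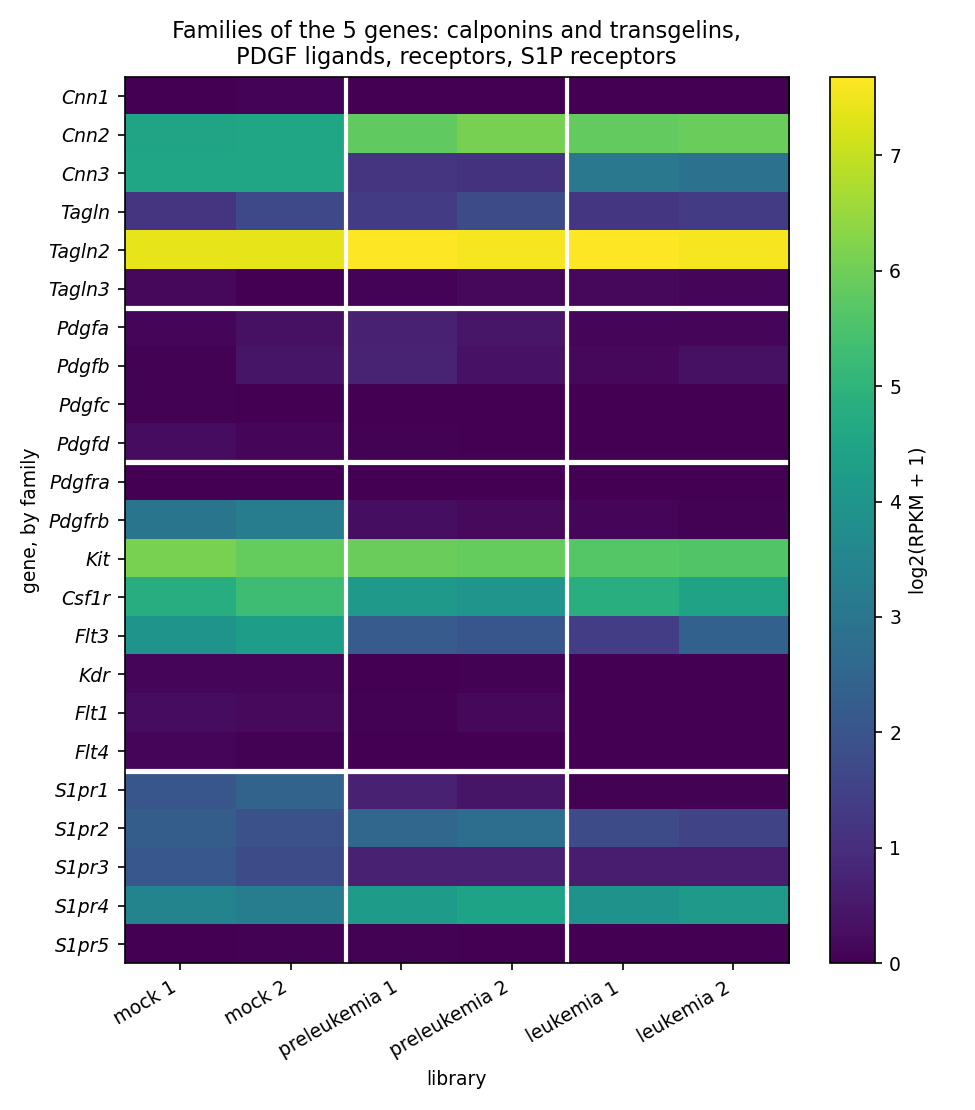
Levels of the calponin and transgelin genes, PDGF ligands, class III and V receptors and sphingosine-1-phosphate receptors (vertical axis, by family) in the 6 libraries (horizontal axis), colour giving log2(RPKM + 1). Within the calponins Cnn3 is high where Cnn2 is lower, Pdgfrb and Flt3 are high in mock, and the PDGF ligands and Pdgfra are near 0 throughout.

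The signalling genes downstream of the PDGF receptors serve many receptors. Of 34 genes 32 were tested. In preleukemia against mock 2 fell and 6 rose, and in leukemia against mock 3 fell and 5 rose, so that 8 of 32 passed in each, where 19.5% and 25.6% of all tested genes did. The median was -0.03 in each. Stat3, a transcription factor activated by many receptors, was measured at 12.0 and 15.5 RPKM in the mock pair, 24.1 and 27.1 in the preleukemia pair and 25.0 and 25.4 in the leukemia pair. It rose by 0.86 and 0.84 (limma adjusted p = 0.00823 and 0.00682), and did not pass without preleukemia library 2 (0.0817) or leukemia library 2 (0.0501). Sos1, an exchange factor for Ras, fell by 0.73 in leukemia (limma adjusted p = 0.00723), and not without leukemia library 1 (0.0644). Grb2, the adaptor that carries Sos proteins to receptors, rose by 0.49 in leukemia (limma adjusted p = 0.0128), and not without either leukemia library (0.0808 and 0.0836). The count of 8 in preleukemia was 14 without mock library 1, 3 and 0 without preleukemia library 1 or 2, and 4 without either leukemia library. The count of 8 in leukemia was 5 without either preleukemia library, and 1 and 2 without leukemia library 1 or 2.

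Pdgfrb is a marker of pericytes and stroma, so the other markers of those cells were read beside it. Of 18 mesenchymal stroma markers, 16 stayed under 1 RPKM in all 6 libraries, the highest of them Vcam1 at 0.708 RPKM, and Lum and Ebf3 were at 0 throughout. The summed level was 17.1 to 23.9 RPKM in mock, 18.8 to 20.6 in preleukemia and 9.14 to 9.65 in leukemia. These sums come mostly from Runx2 and Thy1, which blood cells also express. Runx2 stood at 14.6 and 21.3 RPKM in mock and between 5.67 and 6.97 in the other libraries. Thy1 stood at 0.907 and 1.43 RPKM in the mock pair, 11.5 and 13.2 in the preleukemia pair and 2.14 and 2.20 in the leukemia pair. Of 11 pericyte and smooth muscle markers, 10 stayed under 1 RPKM, at most 0.662, with Kcnj8 at 0 and sums of 1.84 to 3.25, 2.52 to 3.78 and 1.73 to 1.88 RPKM. The part of such cells in the level of Pdgfrb was not tested.

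**Figure D4:**
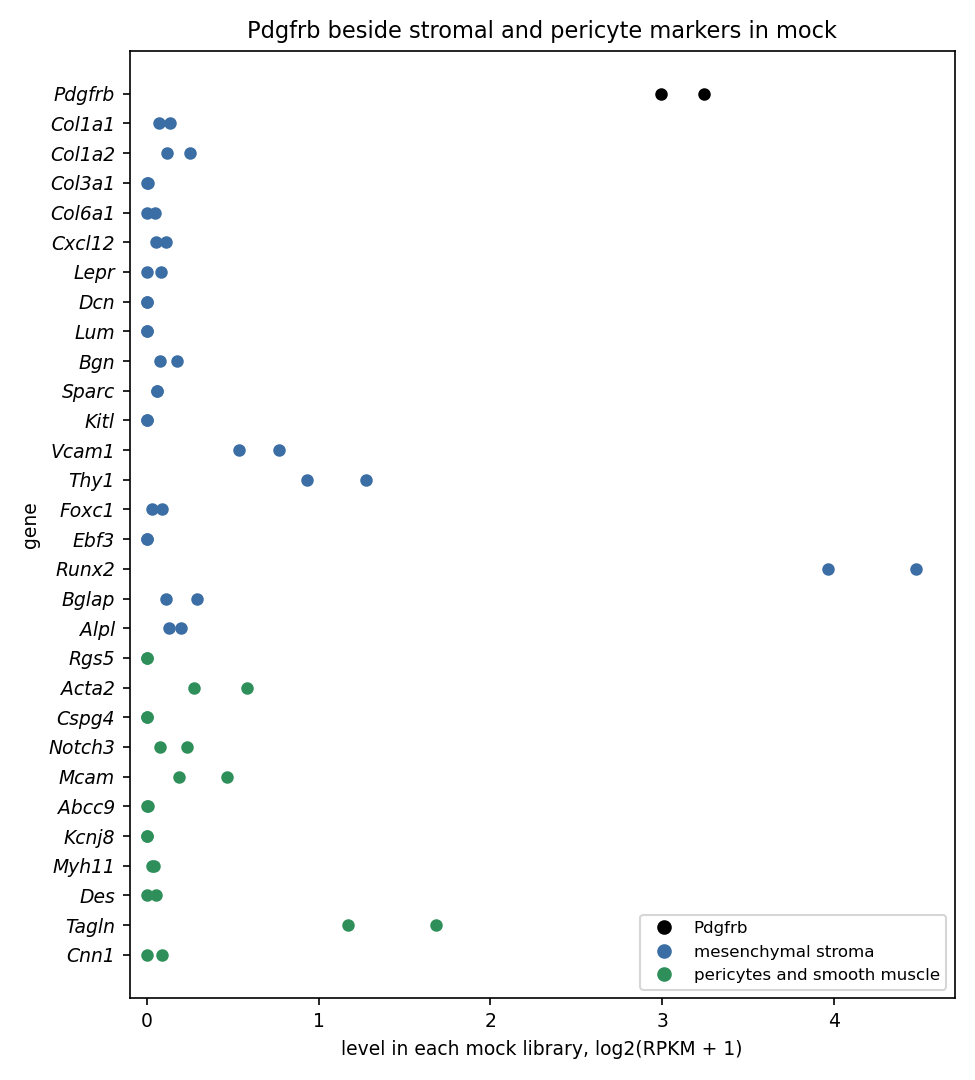
Level in the 2 mock libraries (horizontal axis, log2(RPKM + 1), a point per library) of Pdgfrb, 18 mesenchymal stroma markers and 11 pericyte and smooth muscle markers (vertical axis). Pdgfrb lies above all of them but Runx2.

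Markers of other lineages were summed in each library. Of 17 T and NK cell markers 13 stayed under 1 RPKM, at most 0.421, and Lck, Il7r, Nkg7 and Il2rb reached it. Their sum was 51.7 to 91.2 RPKM in mock, 70.6 to 71.3 in preleukemia, within the mock range, and 9.43 to 16.9 in leukemia. It was largely Nkg7, at 87.7 and 47.1, then 66.7 and 67.2, then 6.83 and 14.6 RPKM. The 11 mast cell and basophil markers summed to 123 to 177 RPKM in mock, 64.4 to 77.7 in preleukemia and 73.7 to 74.5 in leukemia. Prss34, a basophil protease, stood at 11.1 and 16.0 RPKM in mock and at most 0.0486 elsewhere, and Hdc, the enzyme that makes histamine, at 14.1 and 8.64 in the mock pair, 0.999 and 0.882 in the preleukemia pair and 0.358 and 0.303 in the leukemia pair. The summed level of the 11 B-lymphoid markers was 44.8 to 49.0 RPKM in mock, 18.3 to 20.0 in preleukemia and 12.7 to 12.9 in leukemia. That of 12 neutrophil markers was 25.2 to 26.4, 3936 to 8387 and 475 to 788 RPKM. The 9 erythroid markers summed to 139 to 298, 117 to 179 and 27.7 to 36.1 RPKM, and the 11 megakaryocyte markers to 40.0 to 41.5, 59.9 to 80.9 and 5.03 to 14.5 RPKM. Erythroid and megakaryocyte sums were thus lowest in leukemia, and the erythroid sums of mock and preleukemia overlapped. The 12 monocyte and macrophage markers summed to 376 to 535, 381 to 406 and 122 to 151 RPKM. For 11 dendritic cell markers the sums were 96.0 to 149, 68.8 to 69.8 and 69.7 to 70.0 RPKM. For 11 endothelial markers they were 52.1 to 60.4, 51.6 to 65.2 and 79.8 to 85.5 RPKM. For 14 stem and early progenitor markers they were 333 to 394, 295 to 320 and 324 to 372 RPKM. In bulk libraries fewer cells of a type and less RNA per cell cannot be told apart, and the part of these lineages in the levels of Cnn3, Cd69, Pdgfrb and Cnn2 was not tested.

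Genes of like profile were sought by the root mean square difference of log2(RPKM + 1) values, each centred on its mean over the 6 libraries, among 10957 tested genes. Since the members were chosen on part of this profile, the result is a description. The nearest gene to Cnn3 was Cd69, at 0.275, and the nearest to Cd69 was Cnn3. Tnf, the inflammatory cytokine, came next for both (0.424 from Cnn3 and 0.527 from Cd69), followed by Bin1, a membrane-curving adaptor (0.498 and 0.566). Tnf stood at 6.86 and 6.82 RPKM in the mock pair, 0.252 and 0.423 in the preleukemia pair and 2.03 and 1.06 in the leukemia pair. Bin1 stood at 14.1 and 14.1, then 2.58 and 1.66, then 5.11 and 4.01 RPKM. Each of these had its lowest levels in preleukemia and intermediate ones in leukemia, a shape that follows from the choice by profile. Cnn3 was further followed by Serpinf1 and Pde4b, and Cd69 by Ubash3a and Ccdc135.

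Pdgfrb kept other company: it was the 45th gene from Cnn3 (0.841) and the 245th from Cd69 (1.05). Its nearest genes were Samd14 (0.273), Oaf (0.282), Trem1 (0.284), Hdc (0.302) and Tnfaip3 (0.313). Samd14 was measured at 12.0 and 9.61 RPKM in the mock pair, 0.682 and 0.465 in the preleukemia pair and 0 and 0.0452 in the leukemia pair. Trem1, a receptor that amplifies myeloid inflammation, stood at 5.61 and 11.7, then 0.0986 and 0.416, then 0.493 and 0.255 RPKM. Tnfaip3, which restrains NF-kB signalling, stood at 35.9 and 34.3, then 4.92 and 3.50, then 6.73 and 3.31 RPKM. These genes were picked for their likeness to Pdgfrb, so their low levels in both groups with Evi1 follow from the choice. Samd14, Oaf, Trem1 and Hdc reached 1 RPKM in the mock libraries alone and so entered the ranking through the group in which they were high.

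**Figure D5:**
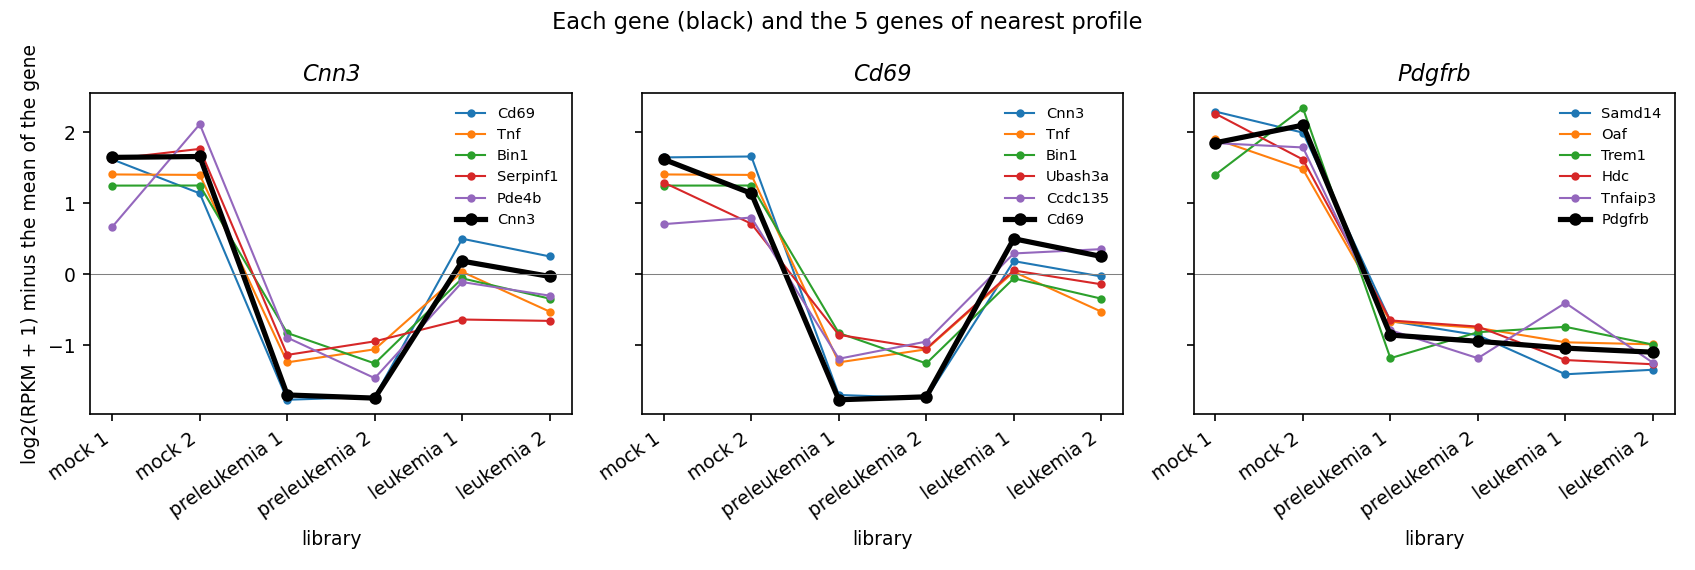
Profiles over the 6 libraries (horizontal axis) of Cnn3, Cd69 and Pdgfrb (black) and of the 5 genes nearest to each, as log2(RPKM + 1) minus the mean of the gene. The profiles of Cnn3 and Cd69 climb again in leukemia and that of Pdgfrb stays low; lines join libraries only to guide the eye.

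The genes beside the calponins on the chromosome did not pass with them throughout. Tmem259, 4.25 kb before Cnn2, ranged from 25.0 to 28.0 RPKM and did not pass (limma adjusted p = 0.866 and 0.646 against mock). Abca7, a lipid transporter that starts 0.432 kb beyond Cnn2 on the same strand, was measured at 33.1 and 35.3 RPKM in the mock pair, 46.4 and 53.0 in the preleukemia pair and 39.1 and 42.5 in the leukemia pair. It rose by 0.52 in preleukemia (limma adjusted p = 0.0188), but not without preleukemia library 1 (0.0615) or 2 (0.156), and its 0.25 in leukemia did not pass (limma adjusted p = 0.133). Alg14, 63.4 kb before Cnn3, stood between 2.34 and 5.91 RPKM and did not pass (limma adjusted p = 0.156 and 0.522), and Slc44a3, 1.32 kb beyond Cnn3, did not exceed 0.0193 RPKM. Cdx1, before Pdgfrb, was at 0 in every library.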

How the data were processed

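The authors deposited 1 table of RPKM values, reads scaled by gene length and library total, for 38924 rows and 6 libraries; the unit was inferred from the values. Per the labels' protocols, the kits were Nucleospin RNA for extraction and NEBNext Ultra RNA for libraries; the latter does not mark strand, so antisense reads cannot be told apart. CASAVA 1.8.2 and GRCm38 stand in the submitters' processing notes. Which aligner, counter and annotation were used is not given in the sources used here. Values were turned back into reads with a gene length at which every library above 0 falls within 0.02 reads of a whole number. The GENCODE M21 exon length was used where it worked (45.2% of the tested rows), and otherwise the smallest such length from 100 to 20000 bases. A length was found for 99.9% of the rows above 0. In rows with few libraries above 0, such as Pdgfra, the search is weakly bound and its reads are the smallest it allows. Intervals and floors rest on these reads. No molecular identifiers are named in the labels, so they cover counting error only.

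The comparisons used limma 3.58.1 (R 4.3.3) on log2(RPKM + 1), with a mean-dependent spread over all 6 libraries, for genes reaching 1 RPKM in 2 or more libraries. An exact permutation test of 2 against 2 libraries cannot go below 0.333. Positions are from GENCODE M21, matched by symbol (91.0% of rows). The members and lists were chosen with earlier results of these data known. The named genes were the members and their families, up to 3 genes of each list by the smallest p in leukemia against mock, the 5 genes of nearest profile, and neighbours on the chromosome; Egr1 was added after its values were seen, and some genes picked this way are left out. Other pseudocounts, filters, scalings, spreads, weights, a replicate block and each library left out were tried, and limma-voom on recovered reads was added after seeing the data.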

Additional observations from a re-analysis of the deposited data

How the results depend on the processing

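Over 17 alternatives each, Cnn3 and Cd69 kept their rise from preleukemia to leukemia, Cnn3 and Pdgfrb their fall and Cnn2 its rise from mock to leukemia, and Cnn2 its rise from mock to preleukemia. For Cnn3, Cd69 and Pdgfrb every alternative reused mock or preleukemia libraries on which they were chosen, so a kept call is no independent support. Pdgfrb also reached 1 RPKM in the mock libraries alone. Cd69 kept its fall from mock to leukemia except without leukemia library 2 (-0.88, limma adjusted p = 0.0624; -1.24 to -0.76 over all libraries left out). Against mock, the untested difference in preleukemia was -4.07 for Cnn3 with a pseudocount of 0.1, -2.13 with 5, -3.47 after quantile normalization, -3.43 after TMM-like scaling and -4.16 with limma-voom. It was -2.45 for Cd69 with a pseudocount of 5 and -3.39 with limma-voom. For Pdgfrb it was -4.81 and -1.29 with pseudocounts of 0.1 and 5, -3.01 after quantile normalization and -5.43 with limma-voom. Between leukemia and preleukemia, Cnn2 turned to 0.081 after quantile normalization and 0.030 after TMM-like scaling and ran from -0.22 to 0.092 with a library left out, and Pdgfrb to 0.13 after quantile normalization, never past the threshold. The signs of values near 0 also turned for some genes with a library left out. In preleukemia against mock Kit ran from -0.24 to 0.019, Tagln from -0.14 to 0.38, Myc from -0.059 to 0.95 (past the threshold without mock library 1) and Tmem259 from -0.077 to 0.023. In leukemia against mock Tagln ran from -0.41 to 0.098, Egr1 from -0.18 to 0.37 and Alg14 from -0.61 to 0.14.

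Genes past the threshold numbered 2140 in preleukemia against mock, 1374 in a fit of those 4 libraries, 1421 with library weights and 520 to 3873 with a library left out. In leukemia against mock they numbered 2809, and 1046 to 3848 with a library left out. In leukemia against preleukemia they numbered 2006, 1302 without the filter, 3428 in a fit of the 4 libraries, 3786 with library weights and 430 to 3449 with a library left out. A group left with 1 library is assumed to vary like the others. Quantile normalization moved the median of all genes in leukemia against preleukemia from -0.09 to 0.03. TMM-like scaling moved the share of higher genes among those past the threshold to 58.6%, 50.6% and 42% in the 3 comparisons. Same-numbered libraries deviated together with correlations of 0.12, 0.01 and 0.18, so their numbers were not taken as pairs, and the replicate block gave 2118, 2932 and 2060 genes and changed no call of a member. Depth limits Pdgfrb in leukemia, at 11 reads, and Pdgfra, at 3 reads in all.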
